A study of Mus musculus with 6 samples.

Results

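Egr1, Egr2, Egr3, Egr4, Nr4a1, Nr4a2, Nr4a3, Arc, Npas4 and Ier2 are genes whose transcripts appear within minutes to hours when a neuron fires or a cell is stimulated. These 10 symbols were looked up by name in a table of 24419 gene symbols, all 10 were found, and all 10 were among the 14523 genes tested, those with a mean of at least 1 CPM (reads per total of the library, as scaled by the authors) over the 6 libraries. The libraries hold RNA of cells taken from the peri-infarct cortex of male wild-type C57BL/6N mice on day 4 after a stroke, produced by a 60 min occlusion of the middle cerebral artery. In the 15-HETrE group (3 libraries) the mice received 600 ng of 15-HETrE, a hydroxylated fatty acid, in 150 µL of phosphate-buffered saline into a vein at 24, 48 and 72 h after onset; in the vehicle group (3 libraries) they received vehicle on the same schedule. All animals had the stroke, so neither group shows the uninjured level. The tissue was held in pronase for 75 min at room temperature, and cells carrying Thy1 but not ACSA2, CD31, CD45 or O4 were sorted to enrich neurons. Whether every library stands for another animal is not stated, so p-values measure only how far the libraries spread, and that spread may be technical.

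Early response genes are switched on by calcium entry and kinase signalling without new protein synthesis. The kinases act on factors already bound to the DNA, such as CREB on cAMP response elements and SRF with its partners on CArG boxes. The Egr proteins are zinc finger transcription factors, the Nr4a proteins are orphan nuclear receptors, and Npas4 is a transcription factor that in the brain is largely restricted to neurons and to calcium signals. Arc is an effector that acts at the synapse, where it promotes the removal of AMPA receptors from the membrane. Egr1, Nr4a1 and Ier2 are also induced by growth factors and by injury in glia, fibroblasts, endothelium and leukocytes, so in a mixed sample their transcripts need not come from neurons.

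The promoter sequences were searched for motifs of factors known from this response. Windows of 250 bases before a RefSeq transcript start (GRCm38.p6) were used for 6 of the genes, Egr2, Egr4, Nr4a1, Nr4a2, Nr4a3 and Npas4. TGACG, the core of the cAMP response element, searched on both strands, was found in a window of each of the 6; it was found in 17.8% of all 32851 windows of that length. Egr2 has several annotated starts and so more chances of a match, while the other 5 genes have a single window. The palindrome TGACGTCA was found in windows of 0 of the 6 genes (1.55% of all windows), as were GCGTGGGCG, the site bound by Egr proteins (0.536%), and AAAGGTCA, the site bound by Nr4a monomers (1.34%). The CArG box was found in windows of 1 of the 6 genes, Egr2 (1.47% of all windows). Promoters of Egr1, Egr3, Arc and Ier2 were not searched, so none of these counts covers them. A match describes the letters of the window and not binding. The windows of Egr2, Egr4, Nr4a1 and Nr4a2 and a stretch of Npas4 are printed from 5′ to 3′ on the strand of the gene, because these genes span the stable and the variable ends of the set described below; capitals mark TGACG or its reverse complement.
Egr2, chr10:67537619-67537868, plus strand: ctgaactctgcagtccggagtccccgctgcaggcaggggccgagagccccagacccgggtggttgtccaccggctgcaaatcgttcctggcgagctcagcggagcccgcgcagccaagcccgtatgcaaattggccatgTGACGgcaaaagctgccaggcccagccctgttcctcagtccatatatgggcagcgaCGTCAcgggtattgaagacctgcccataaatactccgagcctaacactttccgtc
Egr4, chr6:85513590-85513839, minus strand: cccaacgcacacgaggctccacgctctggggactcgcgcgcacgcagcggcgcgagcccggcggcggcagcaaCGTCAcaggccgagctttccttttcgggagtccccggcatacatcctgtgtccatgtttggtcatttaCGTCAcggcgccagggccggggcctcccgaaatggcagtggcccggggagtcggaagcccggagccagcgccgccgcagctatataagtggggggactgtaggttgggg
Nr4a1, chr15:101266596-101266845, plus strand: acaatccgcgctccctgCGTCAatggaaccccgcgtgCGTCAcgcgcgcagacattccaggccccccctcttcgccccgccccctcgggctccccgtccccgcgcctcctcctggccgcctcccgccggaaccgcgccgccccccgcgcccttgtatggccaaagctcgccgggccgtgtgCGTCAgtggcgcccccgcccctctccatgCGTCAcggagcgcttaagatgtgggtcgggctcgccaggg
Nr4a2, chr2:57124004-57124253, minus strand: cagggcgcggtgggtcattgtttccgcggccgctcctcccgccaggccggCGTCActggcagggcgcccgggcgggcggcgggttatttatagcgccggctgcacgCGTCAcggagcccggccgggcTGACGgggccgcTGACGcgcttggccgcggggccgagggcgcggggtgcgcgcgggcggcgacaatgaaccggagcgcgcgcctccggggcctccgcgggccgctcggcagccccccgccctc
Npas4, chr19:4990129-4990158, minus strand: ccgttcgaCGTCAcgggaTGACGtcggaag

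Nr4a1 and Nr4a2 carry 4 copies of TGACG in their windows and Egr4 and Npas4 carry 2, at positions -177 and -109 from the start in Egr4 and at -179 and -169 in Npas4. These positions count from the RefSeq start: the GENCODE model of Npas4 starts further upstream, so that all 250 bases of its window lie in an annotated exon, as do 152 bases of the Nr4a3 window. The GENCODE genes of Egr2 and Nr4a1 also start upstream of the printed windows, at 67535475 and 101254269. Those windows therefore lie inside the genes, outside annotated exons. In the printed Egr2 window the copies start at -111 and -55, with the CArG box at -72 between them.

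The libraries held 5405245 to 22558400 reads assigned to genes and are named after their column headings. Vehicle 1, vehicle 2 and 15-HETrE 1 share a first heading prefix, 15-HETrE unnumbered has a second, and a library of each group is headed combined; what combined means is not given. Both combined libraries are the shallowest, with 7993084 reads in 15-HETrE combined and 5405245 in vehicle combined. The cells were labelled as neurons, and all 12 pan-neuronal markers were present in every library. Myelin genes of oligodendrocytes were abundant as well, at a summed 16888 to 33070 CPM in the 15-HETrE libraries and 15937 to 24007 CPM in the vehicle libraries. Fibroblast markers summed to 1232 to 2236 CPM in the 15-HETrE libraries, against 12903, 10520 and 1487 CPM in the vehicle libraries 1, 2 and combined, with Postn or Dpt at 0 in some libraries. Astrocyte markers summed to 21846 and 8507 CPM in 15-HETrE combined and vehicle combined and to 902 to 4075 CPM in the other 4 libraries. Of 8 lymphocyte markers, 4 had no read in any library. In such bulk samples, fewer cells of a type and less RNA per cell cannot be told apart.

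Divided by exon length, the genes covered a wide range of levels. Egr1 stood first in every library, at 188 to 318 CPM per kilobase, and its mean of 232 ± 46.0 (SD over 6 libraries) ranked 53 among the 13948 tested genes with a known length. Nr4a1 (66.9 ± 14.9 CPM per kilobase), Ier2 (57.6 ± 17.0) and Arc (55.8 ± 21.6) formed the next level and were not separated from each other beyond their spread: Nr4a1 exceeded Ier2 in 4 of 6 libraries and Ier2 exceeded Arc in 2 of 6. Egr3 followed at 23.0 ± 6.64 CPM per kilobase, below Arc in all 6 libraries and above Egr2 in 4. Egr2 (10.9 ± 7.66), Nr4a2 (10.6 ± 6.10), Nr4a3 (9.90 ± 2.32) and Npas4 (7.99 ± 4.37) changed places between libraries. Egr4 was lowest, at 4.28 ± 2.80 CPM per kilobase, and lay below Npas4 in all 6 libraries. Egr1 alone made up 51.7 to 64.4% of the summed CPM of the 10 genes, a sum that lay between 1611 and 1940.4 CPM in the 15-HETrE libraries and between 1655 and 2214 CPM in the vehicle libraries.

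**Figure D1:**
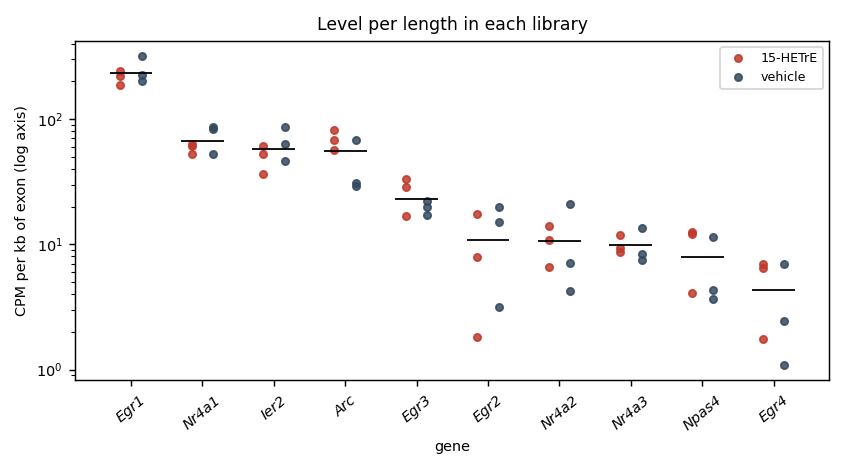
Level of each gene in CPM per kilobase of exon (log axis), with 15-HETrE libraries as red points left of the vehicle libraries as dark points, and the mean of all 6 as a black line. Egr1 lies apart at the top, Nr4a1, Ier2 and Arc share a level, and Egr4 is at the bottom with a mean of 4.28 CPM per kilobase.

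The comparison asked whether these genes differ between sorted peri-infarct cells of 15-HETrE mice and of vehicle mice. None of the 10 passed the test over all genes (limma, Benjamini-Hochberg adjustment, threshold 0.05), with adjusted p from 0.513 to 0.961; of all 14523 genes, 0% were called in either direction, and the smallest adjusted p was 0.131. In all 10 genes the libraries of both groups overlapped, while 15.2% of all genes tested had groups that did not overlap. At an unadjusted p under 0.05 stood 1 of the 10 genes, Arc, and 9.5% of all genes (1380). Fold changes were above 0 for 6 genes and below 0 for 4, with a median of 0.13 on the log2(CPM + 1) scale beside 0.02 over all genes tested. The quasi-likelihood test of edgeR, run on recovered reads, called 0 of the 10 and 0% of all genes, with 1232 genes (8.48%) at an unadjusted p under 0.05. DESeq2 called 0 of the 10 and 1.14% of all genes. A p that misses the threshold does not show equal levels, so the 95% interval of each difference is given with it.

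**Figure D2:**
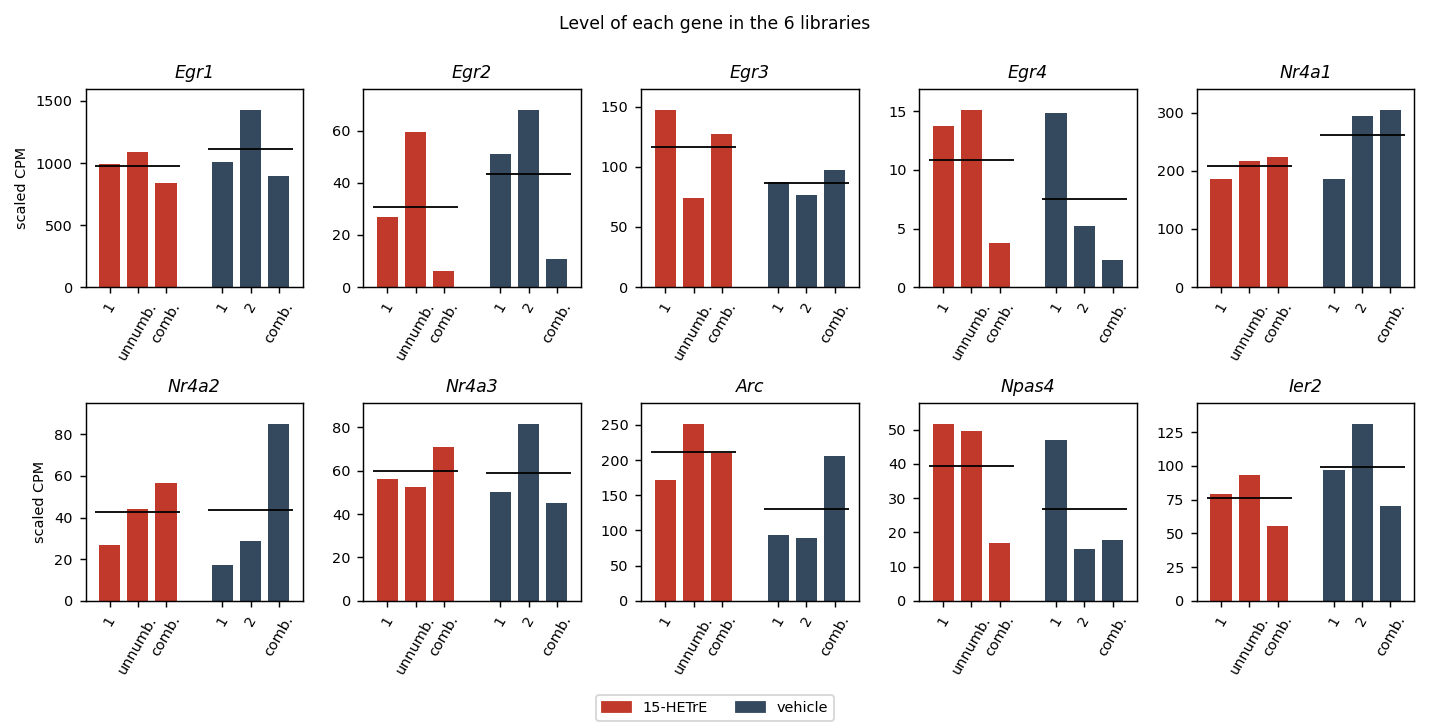
Scaled CPM of each gene (each panel has its own axis from 0) in the 3 15-HETrE libraries (red) and the 3 vehicle libraries (dark), with the group mean as a black line. The groups overlap in all 10 panels, and in Egr2, Egr4 and Npas4 the combined libraries are low in both groups.

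Among the Egr factors, Egr1, the best known of the family and a mediator of activity-dependent gene expression, was close between groups. It had 993, 1085 and 842 CPM in 15-HETrE 1, 15-HETrE unnumbered and 15-HETrE combined, against 1010.1, 1425 and 898 CPM in the vehicle libraries 1, 2 and combined. Only vehicle 2 stood above the rest. Between groups the log2 difference was -0.17 (SE 0.29, adjusted p 0.872, limma), with an interval from 0.566-fold to 1.40-fold. The gene lies on chromosome 18, 34859823 to 34864984 (GRCm38).

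Egr2, which also drives myelination in Schwann cells and is induced in stimulated fibroblasts and lymphocytes, was the most variable gene of the set. It had 26.8, 59.3 and 6.22 CPM in 15-HETrE 1, unnumbered and combined, against 51.0, 67.8 and 10.8 CPM in the vehicle libraries 1, 2 and combined. The span from lowest to highest was 10.9-fold, and its spread within groups (SD 1.46, log2) was larger than that of 95.5% of the genes tested. Both combined libraries were low and vehicle 1, vehicle 2 and 15-HETrE unnumbered were high. Fibroblast markers were high and low in the same libraries: their mean log2 level was 4.47, 6.87 and 3.10 in 15-HETrE 1, unnumbered and combined, against 8.74, 8.63 and 3.41 in vehicle 1, vehicle 2 and vehicle combined. With the fibroblast level as a covariate, chosen after the data were seen, the log2 fold change of Egr2 was 0.53 in place of -0.60 (SE 0.82; limma adjusted p 0.543 and 0.833). Without 15-HETrE combined it was 0.23 and without vehicle combined -1.38. Of 10 fibroblast markers, 9 had fold changes below 0, so this covariate partly follows the groups and the fit cannot separate them. The part of fibroblast transcripts in the level of Egr2 was not tested.

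Egr3, an Egr factor of cortical neurons that acts downstream of activity, had 147, 74.2 and 127 CPM in 15-HETrE 1, unnumbered and combined, against 87.0, 76.4 and 97.1 CPM in the vehicle libraries 1, 2 and combined. 15-HETrE 1 and combined lay above every vehicle library, and 15-HETrE unnumbered lay below all of them. Limma gave a log2 difference of 0.36 (SE 0.30, adjusted p 0.720, limma), with an interval from 0.811-fold to 2.04-fold, and it was 0.65 without 15-HETrE unnumbered and 0.17 without 15-HETrE 1.

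Egr4, the family member found mostly in neurons, had 13.8, 15.1 and 3.78 CPM in 15-HETrE 1, unnumbered and combined, against 14.9, 5.22 and 2.34 CPM in the vehicle libraries 1, 2 and combined. It was high in 3 libraries of both groups and low in the other 3. Reads were few at the low end, 28 in 15-HETrE combined (exact 95% Poisson interval 2.51 to 5.47 CPM) and 13 in vehicle combined (1.24 to 4.00 CPM); such intervals cover counting error only, since reads are not counted by molecular identifiers. For Egr4 the log2 fold change was 0.60 (SE 0.75, adjusted p 0.817, limma), it was 0.07 without vehicle combined, and it was 1.20 and 1.16 without vehicle 1 and without 15-HETrE combined.

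Among the nuclear receptors, Nr4a1 (Nur77) was steady. It had 185, 216 and 224 CPM in 15-HETrE 1, unnumbered and combined, against 186, 294 and 304 CPM in the vehicle libraries 1, 2 and combined. Vehicle 1 lay within the range of the 15-HETrE libraries and the other vehicle libraries above it. The groups differed by -0.30 on the log2 scale (SE 0.26, adjusted p 0.732, limma), with an interval from 0.544-fold to 1.21-fold.

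Nr4a2 (Nurr1), which maintains midbrain dopamine neurons and is found in deep layers of the cortex, had 26.8, 44.3 and 56.5 CPM in 15-HETrE 1, unnumbered and combined, against 17.3, 28.6 and 84.9 CPM in the vehicle libraries 1, 2 and combined. In both groups the combined library was the highest. This is the reverse of Egr2 and Egr4, whose combined library was the lowest in each group. In Npas4 the combined libraries were low as well, but vehicle 2 was lower still. Astrocyte markers were also highest in the combined libraries, with mean log2 levels of 8.95 and 8.10 in 15-HETrE combined and vehicle combined and of 5.47 to 6.67 elsewhere. Microglia markers (2.94 and 3.51, against 1.36 to 2.82 elsewhere) and markers of oligodendrocyte precursors (8.48 and 8.78, against 7.56 to 8.30) were highest there too, with vehicle combined on top as in Nr4a2, whereas astrocyte markers were highest in 15-HETrE combined. The part of these cell types in Nr4a2 was not tested. The log2 fold change was 0.21 (SE 0.54, adjusted p 0.922, limma). It was 0.84 without vehicle combined and -0.27 without vehicle 1, so its sign rested on single libraries.

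Nr4a3 (Nor1), the third receptor, had 56.0, 52.4 and 70.7 CPM in 15-HETrE 1, unnumbered and combined, against 50.1, 81.4 and 45.1 CPM in the vehicle libraries 1, 2 and combined. The vehicle libraries held both the highest and the lowest value. The means were 59.7 ± 9.69 CPM in 15-HETrE and 58.9 ± 19.7 CPM in vehicle libraries (SD, n = 3 each). The log2 difference was 0.06 (SE 0.31, adjusted p 0.961, limma), with an interval from 0.644-fold to 1.68-fold.

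Arc had the largest fold change and the smallest p of the 10 genes, and it did not pass. It had 172, 251 and 209.8 CPM in 15-HETrE 1, unnumbered and combined, against 94.0, 89.4 and 206 CPM in the vehicle libraries 1, 2 and combined. Vehicle 1 and vehicle 2 lay below all 15-HETrE libraries, while vehicle combined lay within their range. The means were 211 ± 39.4 CPM in 15-HETrE and 129.9 ± 66.2 CPM in vehicle libraries (SD, n = 3 each). The log2 fold change was 0.79 (SE 0.34, interval 0.04 to 1.54), with an unadjusted p of 0.0415 and an adjusted p of 0.513 (limma). Libraries of the first prefix differed by 0.90 and those of the combined pair by 0.02. Without vehicle combined it was 1.18 (adjusted p 0.0759), and with libraries weighted by limma (vehicle combined had the lowest weight, 0.206) it was 0.97 (adjusted p 0.00519), a setting in which 16.7% of all genes were called. Pan-neuronal markers had a mean log2 level of 7.97, 7.34 and 7.58 in 15-HETrE 1, unnumbered and combined. In vehicle 1, vehicle 2 and vehicle combined it was 7.37, 6.54 and 6.60. Vehicle combined was low in these markers and high in Arc, while vehicle 2 was low in both. With the pan-neuronal level as a covariate, chosen after the data were seen, the log2 fold change of Arc was 1.31 (adjusted p 1.000, limma). Of these 12 markers, 11 had fold changes above 0, so the covariate partly follows the groups and the fit cannot separate them. The part of neuronal content in the level of Arc was not tested.

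Npas4 had 51.6, 49.7 and 16.9 CPM in 15-HETrE 1, unnumbered and combined, against 47.1, 15.2 and 17.8 CPM in the vehicle libraries 1, 2 and combined. As in Egr4, 15-HETrE 1, 15-HETrE unnumbered and vehicle 1 were high and the other 3 low. The lowest read count, 99 in vehicle combined, gave a Poisson interval of 14.5 to 21.7 CPM, so the gap between the high and the low libraries exceeded counting error. The log2 fold change was 0.57 (SE 0.55, adjusted p 0.759, limma), 0.92 in the first prefix alone and -0.07 in the combined pair alone. It was 1.08 without 15-HETrE combined, 1.06 without vehicle 1 and 0.27 without vehicle 2.

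Ier2, a nuclear protein gene of the early response in many cell types, had 79.5, 93.5 and 55.6 CPM in 15-HETrE 1, unnumbered and combined, against 96.7, 131 and 70.3 CPM in the vehicle libraries 1, 2 and combined. The order of libraries was close to that of Egr1, with vehicle 2 highest and 15-HETrE combined lowest in both. Its log2 fold change was -0.36 (SE 0.31, adjusted p 0.730, limma), with an interval from 0.479-fold to 1.26-fold.

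**Figure D3:**
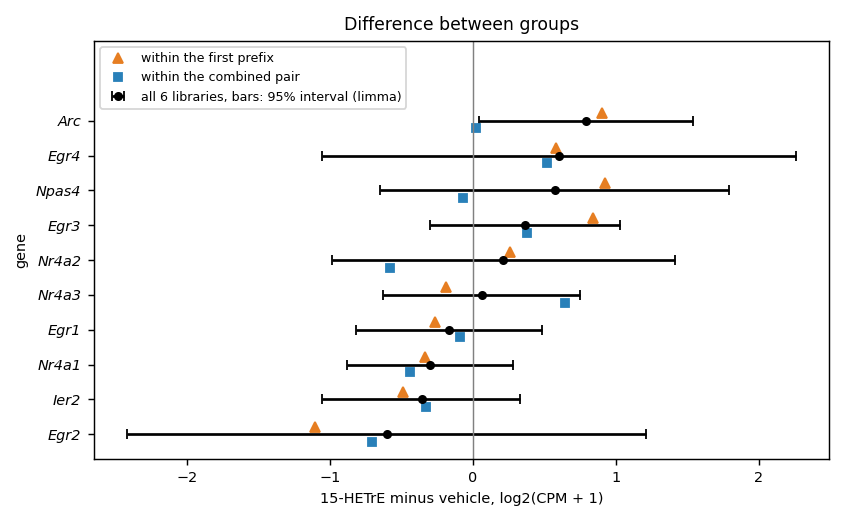
Difference between groups for each gene (15-HETrE minus vehicle, log2(CPM + 1)), as a black point with the 95% interval of limma, with differences inside the first heading prefix as triangles and inside the combined pair as squares, which carry no test. Arc is the gene whose interval leaves out 0, from 0.04 to 1.54, and its difference within the combined pair is 0.02.

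Within the first prefix, 15-HETrE 1 was above the mean of vehicle 1 and vehicle 2 for 5 genes and below it for 5; within the combined pair, 15-HETrE combined was above vehicle combined for 4 and below for 6. The second prefix held a single library and gave no difference. Both differences had the same sign for 7 genes, but their sizes were far apart for Arc, Npas4, Nr4a2 and Nr4a3. For Nr4a2 the first prefix gave 0.26 and the combined pair -0.58. For Nr4a3 they gave -0.19 and 0.64.

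The 10 genes did not move as a block over the 6 libraries. Likeness was measured as the root mean square difference between profiles of log2(CPM + 1), each centred on its mean. Egr1 and Ier2 were the closest pair, at 0.17, and Egr4 and Npas4 were at 0.35. Egr1, Nr4a1 and Nr4a3 were the steadiest genes, with highest-to-lowest ratios of 1.69, 1.65 and 1.80, and a log2 range at least as wide as that of 12.3%, 10.4% and 15.8% of all genes tested. The ratio was 1.98 for Egr3, 2.35 for Ier2, 2.81 for Arc, 3.41 for Npas4, 4.91 for Nr4a2 and 6.46 for Egr4. Vehicle 2 was the highest library for 4 genes (Egr1, Egr2, Nr4a3 and Ier2) and the lowest for Arc and Npas4, and 15-HETrE combined was the lowest for 3 (Egr1, Egr2 and Ier2).

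**Figure D4:**
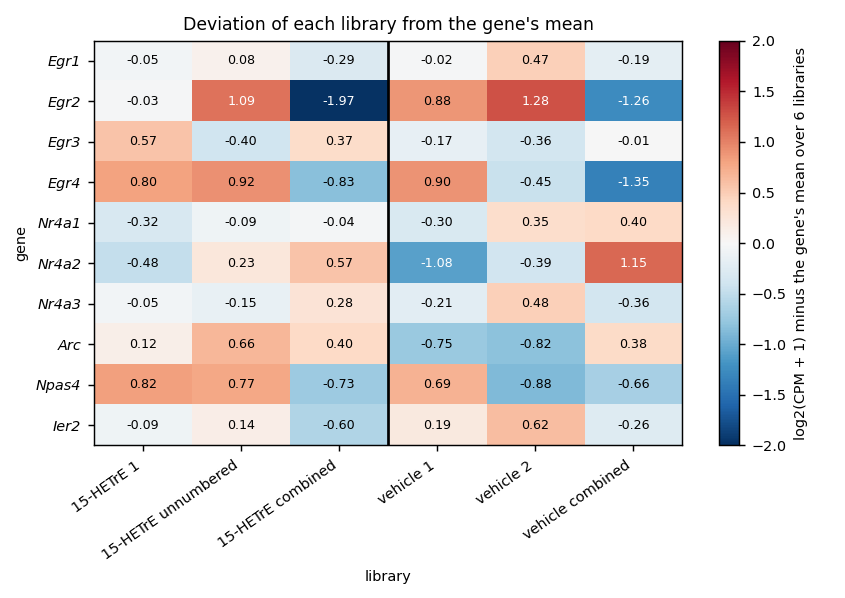
Each gene's log2(CPM + 1) in each library minus its mean over the 6 libraries, with the 15-HETrE libraries left of the black line and the vehicle libraries right of it; red is above and blue below the mean. Egr4 and Npas4 share their high and low libraries, Egr2 and Nr4a2 are opposite in the combined libraries (Egr2 at -1.97 and -1.26, Nr4a2 at 0.57 and 1.15), and Egr1 stays within -0.29 to 0.47.

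Genes that are not in the set but had the closest profiles were taken by the same measure. Sirt1, a deacetylase gene, was closest to Egr1 at 0.07, followed by Rab40c and Med12 at 0.09. Nr4a1 had Pkn2 (0.05), Mast4 (0.07) and Sp1 (0.09), and Arc had Iglon5 (0.16), Gramd1b (0.16) and Shtn1 (0.17) nearest. For Npas4 the nearest were Kcnj4, an inward rectifier potassium channel of neurons (0.15), Syt5, a synaptotagmin (0.19), and Prrt4 (0.21), which had no read in either combined library, where 3 reads would be 0.405 CPM in 15-HETrE combined and 0.540 CPM in vehicle combined. The mean profile of the 10 genes was nearest to Eml6 (0.03), Mdm4 (0.06) and Rnasek (0.06). These are the nearest profiles over 6 libraries among the 14523 genes tested, given as a description. The 10 genes of the set and symbols made of Gm and digits or ending in Rik were left out of the search.

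Other genes of the same response were then counted, and none passed over all genes in either direction (limma). Of 33 other early response genes tested, 31 had fold changes below 0, with a median of -0.60, and 6 had all vehicle libraries above all 15-HETrE libraries, against 8.32% of all genes in that direction. Myc, a growth regulator, had 20.3, 22.9 and 13.4 CPM in the 15-HETrE libraries, against 53.2, 63.6 and 63.7 CPM in the vehicle libraries, without overlap (log2 fold change -1.65, adjusted p 0.334, limma). Csrnp1 (-1.16), Gadd45b (-2.51), which encodes a stress sensor, and Atf3 (-1.32), a transcription factor of injured neurons, did not overlap either, with adjusted p from 0.394 to 0.448 (limma). These 4 were taken for the smallest p of their list, which favours no overlap. Of the 10 genes of the set, by comparison, 4 had fold changes below 0. The mean log2 level of the other early response genes was 5.52, 5.61 and 5.17 in 15-HETrE 1, unnumbered and combined, against 6.08, 6.53 and 5.85 in vehicle 1, vehicle 2 and vehicle combined. As a mean over the list they differed by -0.78 in the first prefix and by -0.68 in the combined pair. Fibroblast markers differed there by -4.22 and -0.31, and pan-neuronal markers by 1.01 and 0.98. The median of the list was -0.48 with the fibroblast covariate and -0.49 with the pan-neuronal covariate. Both covariates partly follow the groups, so these fits cannot separate them. The part of cell make-up in these differences was not tested. Heat shock genes lay on the same side as the other early response genes. Of 14 heat shock genes tested, 12 had fold changes below 0, with a median of -0.61. In 6 of them all vehicle libraries lay above all 15-HETrE libraries, against 8.32% of all genes in that direction. Bag3, a co-chaperone, had 9.83, 10.3 and 10.5 CPM in the 15-HETrE libraries, against 50.5, 60.0 and 24.5 CPM in the vehicle libraries (log2 fold change -1.94, adjusted p 0.334, limma). Hspb1, Hspd1 and Hspa1b, other chaperones, had log2 fold changes of -2.32, -0.80 and -1.24. Bag3 and these chaperone genes were also taken for the smallest p of their list, which favours no overlap. The mean over the heat shock list differed by -0.85 in the first prefix and by -0.59 in the combined pair.

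Late response genes, which in neurons follow the early factors, lay on the other side. Of 21 tested, 15 had fold changes above 0, with a median of 0.57, and 5 had all 15-HETrE libraries above all vehicle libraries, against 6.84% of all genes in that direction, and 1 the reverse. Bdnf, the neurotrophin gene that Npas4 and CREB activate, had 18.8, 11.2 and 7.97 CPM in 15-HETrE 1, unnumbered and combined, against 4.81, 2.38 and 0.540 CPM in the vehicle libraries 1, 2 and combined. All 15-HETrE libraries were above all vehicle libraries (log2 fold change 2.06, SE 0.69, adjusted p 0.454, limma). The 0.540 CPM in vehicle combined stands for 3 reads. Bdnf and the other genes named from the lists here and below were taken for the smallest p of their list, which favours no overlap. Homer1, a postsynaptic scaffold gene, had 218, 159 and 235 CPM in the 15-HETrE libraries, against 117, 98.1 and 133 CPM in the vehicle libraries. Lingo1, an axonal Nogo receptor component, had a log2 fold change of 1.40 (adjusted p 0.366, limma), and Baz1a, a chromatin remodeller subunit, one of -1.71 (adjusted p 0.425, limma). Of 12 pan-neuronal markers, 11 had fold changes above 0 in the same libraries, with a median of 0.81 and 0 passing. With the pan-neuronal level as a covariate the median of the late response genes was -0.32, and that of all genes tested was -0.106. This covariate partly follows the groups, so the fit cannot separate them, here and in the lists below. The part of neuronal content in these lists was not tested. In fits without the covariate, the median of the late response genes was 0.21 without vehicle combined and 0.30 without 15-HETrE 1.

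Upstream kinases and transcription factors had a median of 0.13 (25 of 38 above 0), which was -0.12 with the pan-neuronal covariate, 0.27 without 15-HETrE unnumbered and 0.20 without vehicle 1. Camkk2 and Camk4, calcium-dependent kinases on the way to CREB, had log2 fold changes of 1.30 and 1.09, and Elk3 and Elk4, partners of SRF, had -1.23 and -0.61, with adjusted p from 0.394 to 0.517 (limma). Among partners and corepressors, 8 of 9 were below 0, with a median of -0.25 that was -0.10 without vehicle combined, -0.15 without 15-HETrE 1 and -0.44 without vehicle 1. Nab2, a corepressor that binds Egr proteins and is itself induced by them, had 8.74, 3.10 and 5.81 CPM in the 15-HETrE libraries, against 17.2, 9.54 and 18.3 CPM in the vehicle libraries, without overlap (log2 fold change -1.26, adjusted p 0.527, limma). Arnt2, the partner of Npas4, had a log2 fold change of 0.52, Rcor1, of a repressor complex, had -0.62, and Rxra, a partner of Nr4a1 and Nr4a2, had -0.67. Genes of Arc's partners and of AMPA receptor endocytosis had a median of 0.36, with 15 of 18 above 0. This median was 0.07 with the pan-neuronal covariate, which partly follows the groups, and 0.22 without vehicle 2. Gria3 and Gria2, AMPA receptor subunit genes, had log2 fold changes of 0.71 and 0.52 without overlap, and Camk2a and Dlg4, of the postsynaptic density, had 1.48 and 1.13 with overlap, none of these 4 with an adjusted p under 0.461 (limma).

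**Figure D5:**
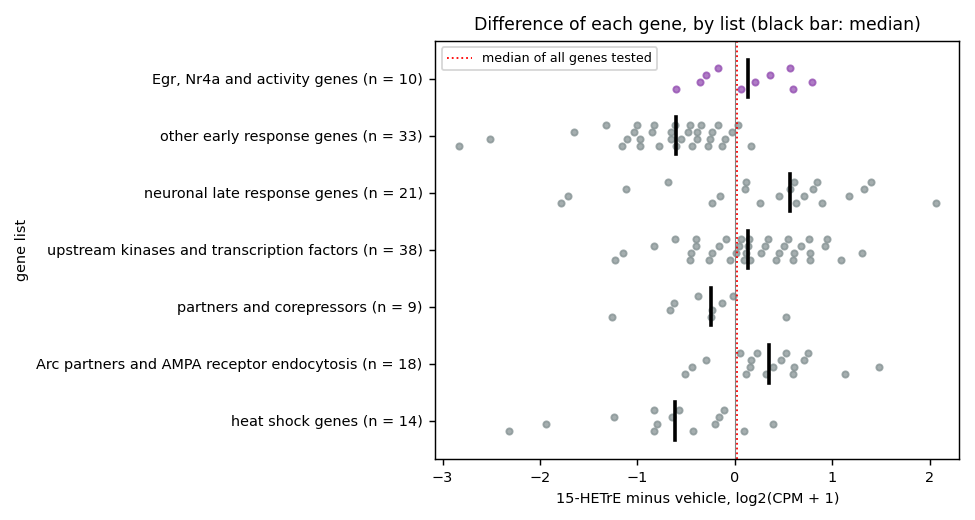
Difference of each gene between groups (15-HETrE minus vehicle, log2(CPM + 1)), by list, with the median of the list as a black bar and the median of all genes tested (0.02) as a dotted line. The 10 Egr, Nr4a and activity genes lie on both sides of 0, with a median of 0.13, the other early response and heat shock genes lie mostly below, with medians of -0.60 and -0.61, and the late response genes mostly above, with a median of 0.57.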

How the data were processed

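Reads were trimmed, aligned and counted with Trimmomatic, HISAT2 and featureCounts and scaled with edgeR, on mm10, as far as the submitters' processing notes name tools and build; versions, settings, strand use and annotation are not given there. The deposited signal is CPM that the authors scaled by a factor per library. All values (100%) were whole multiples of the lowest non-zero value in their column (tolerance 1e-04), so reads were recovered; other columns numbered 0. Column names gave the groups.

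The filter kept a mean CPM of at least 1. Values were fitted as log2(CPM + 1) with limma 3.58.1 (R 4.3.3), treatment as the only term and a variance trend, two-sided, with Benjamini-Hochberg adjustment at 0.05. This scale understates changes of low genes. The design written for CPM was applied to the scaled CPM. edgeR 4.0.16 and DESeq2 1.42.0 used the recovered reads. The scripts were tested on simulated data with changes far larger than those of the genes described here. That test does not show whether changes of their size would be found.

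Members, lists and tests were chosen with earlier results of these data known. Named are the 10 members, at most 4 genes of each related list by smallest p, and the 3 genes with the nearest profile to Egr1, Nr4a1, Arc, Npas4 and the members' mean. Positions and exon lengths are from GENCODE M21 (GRCm38), where 0 exons of members overlap another gene; promoters are from RefSeq.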

Additional observations from a re-analysis of the deposited data

How the results depend on the processing

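Directions and calls were recomputed under 20 alternatives; the covariates were chosen after the data were seen. Arc and Ier2 kept their direction in all 20, and Egr3, Egr4, Nr4a1 and Npas4 in 19. Passing occurred with library weights only, for Arc (0.97, adjusted p 0.00519, limma) and Egr3 (0.72, adjusted p 0.0303, limma). That setting called 16.7% of all genes, and vehicle combined had the lowest weight in it, 0.206. Arc's adjusted p lay between 0.00519 and 1.000. Directions turned for Egr1 (0.00) and Egr2 (0.53) with the fibroblast covariate, and for Egr3 (-0.03), Egr4 (-0.62), Nr4a1 (0.25) and Npas4 (-0.52) with the pan-neuronal covariate. For Nr4a2 they turned with the heading prefix as a term (-0.10), the fibroblast covariate (-0.36), edgeR (-0.03) and DESeq2 (-0.06). For Nr4a3 they turned with library weights (-0.26) and with both combined libraries left out (-0.23). The cause of these turns was not tested. The pan-neuronal covariate moved the median of all genes to -0.106.

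Leaving out a library at a time, the log2 fold change ranged from -0.31 to 0.02 for Egr1, -1.38 to 0.23 for Egr2, 0.17 to 0.65 for Egr3, 0.07 to 1.20 for Egr4, -0.53 to -0.17 for Nr4a1, -0.27 to 0.84 for Nr4a2, -0.11 to 0.31 for Nr4a3, 0.58 to 1.18 for Arc, 0.27 to 1.08 for Npas4 and -0.59 to -0.15 for Ier2. The median of the 10 genes ranged from -0.13 to 0.17.

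Over all genes, 0 were higher and 0 lower. Library weights gave 1059 higher and 1366 lower. The heading prefix as a term gave 1 and 7, leaving out both combined libraries 3 and 201, and DESeq2 35 and 130. Leaving out a library gave 0 to 2 higher and 0 to 108 lower, the highest without vehicle combined. No paired analysis was possible because the columns of both groups share a replicate number only for library 1. The prefix term adjusts for the heading prefix, and whether a prefix marks a batch is not stated. In that fit the combined library of each group is set against that of the other group. The unnumbered library is alone in its prefix and so adds nothing to the group difference there. Depth limits Egr4 most, with 13 reads in vehicle combined.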

Other observations

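Vehicle 1 and vehicle 2 share a heading prefix and a group, and yet differed in Npas4 and Egr4. Npas4 stood at 47.1 CPM in vehicle 1 (1008 reads) and at 15.2 CPM in vehicle 2 (337 reads), a log2 difference of 1.57 that was as large as or larger than that of 99.3% of the genes tested. Egr4 differed by 1.35 between them (98.5%), with 318 and 116 reads. Arc differed by 0.07 (13.8%), with 2011 and 1988 reads, and Egr1 by -0.50, vehicle 2 being higher. Nr4a1 (-0.65), Nr4a2 (-0.69), Nr4a3 (-0.69), Ier2 (-0.43) and Egr2 (-0.40) were also higher in vehicle 2, and Egr3 (0.19) was higher in vehicle 1. The genes of the set thus differed in size and direction between these libraries. Pan-neuronal markers had a mean log2 level of 7.37 in vehicle 1 and 6.54 in vehicle 2, and heat shock genes 7.33 and 7.49; their part in these differences was not tested. These percentiles were computed after the values were seen and carry no test.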
